A study of Sus scrofa with 5 samples.

Results

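NCAM1, NCAM2, PTPRD, CNTN5, GRID1, GRIP1, DPP10 and ANO4 are 8 long genes best known from nerve cells, and their levels are described here in the wall of the pig abdominal aorta. They were matched by symbol among 35670 features, of which 17508 carried a symbol. The genes were selected on their obese-minus-control levels in earlier results of these same libraries, so the diet difference in the 4 cell classes is given as a description with no test. The difference between cell classes was not the contrast used in the choice and was tested. It draws on the same levels per class and library, so it is not fully independent of that choice. Their identifiers in the files are ENSSSCG00000015045 (NCAM1), ENSSSCG00000012020 (NCAM2), ENSSSCG00000005194 (PTPRD), ENSSSCG00000014975 (CNTN5), ENSSSCG00000010352 (GRID1), ENSSSCG00000000478 (GRIP1), ENSSSCG00000015711 (DPP10) and ENSSSCG00000000873 (ANO4).

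Single-nucleus RNA was sequenced from 3 obese and 2 control Ossabaw pigs, a miniature breed that gains fat readily on a rich diet. All were castrated males that began their diet at 12 months of age. The obese pigs ate a HF/HFru diet and the control pigs chow, for 6 months by the sample labels and 9 months by the series description. Each library is taken as 1 pig and came from a frozen vessel piece of about 50 mm whose nuclei were stained with DRAQ5 and sorted, so the pig is the replicate here.

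NCAM1 and NCAM2 are immunoglobulin-family adhesion molecules that bind like molecules on neighbouring cells, and NCAM1 is a known surface marker of non-myelinating Schwann cells, the glia of peripheral nerve. Contactin 5 (CNTN5) is a lipid-anchored relative, and PTPRD is a receptor phosphatase that organises synaptic contacts. GRID1 encodes a delta-type glutamate receptor and GRIP1 a PDZ-domain scaffold that holds glutamate receptors at the membrane. DPP10 is an accessory subunit of Kv4 potassium channels, and ANO4 belongs to the anoctamins, a family of calcium-dependent channels and lipid scramblases.

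After filtering, 41973 nuclei remained, with 7143, 9289 and 9036 in obese replicates 1 to 3 and 11068 and 5437 in control replicates 1 and 2. Library totals lay between 21516249 and 47724416 UMIs (unique molecular identifiers, counted RNA molecules). Between 10 and 29 barcodes were shared by any pair of libraries. Nuclei were placed in classes by marker genes that hold none of the 8, which gave 1083 endothelial-like, 532 Schwann-like, 2098 fibroblast-like and 30978 smooth muscle-like nuclei. They are called endothelial, Schwann, fibroblast and smooth muscle nuclei from here on. Of the fibroblast nuclei, 680 (32.4%) met the minimum number of markers with none to spare or otherwise lay near the limit of the gate. Neuron markers summed to at most 68.9 CPM (the class's UMIs scaled to a common total) in any of these classes. TH, the first enzyme of catecholamine synthesis, was at 0 in all 4 of them, and 2 to 7 nuclei per library passed the gate for neurons. The 8 smooth muscle markers summed to between 637 and 1333 CPM in endothelial nuclei, between 1854 and 3006 CPM in Schwann nuclei, between 1770 and 2634 CPM in fibroblast nuclei and between 8591 and 11530 CPM in smooth muscle nuclei. Fibroblast nuclei also held 974 to 2176 CPM of the 10 endothelial markers beside 1060 to 1756 CPM of their own 9, and the endothelial sum was the higher in 4 of the 5 libraries. The part of these markers in the fibroblast calls for GRIP1 and NCAM1 was not tested. Schwann nuclei held 730 to 1241 CPM of their own 7 markers and 390 to 731 CPM of the 5 lymphatic markers. A gate on each nucleus alone, without its neighbours, gave only 4, 26 and 1 Schwann nuclei in obese pigs and 8 and 4 in control pigs. The part of other classes' markers in the Schwann calls was not tested.

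Within each library, each of the 8 genes except DPP10 was highest in the same 1 of the 4 classes. In tests of endothelial, Schwann and fibroblast nuclei, each minus smooth muscle nuclei of the same pigs (edgeR quasi-likelihood test, Benjamini-Hochberg adjustment over 8864 genes), 6, 4 and 5 of the 8 genes passed an adjusted p of 0.05. Of all genes tested, 43.4%, 29.3% and 29.1% passed in these 3 contrasts.

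NCAM1 had 1690, 2386 and 2158 CPM in Schwann nuclei of obese pigs and 1765 and 1387 CPM in those of control pigs. In smooth muscle nuclei it had 195, 127 and 275 CPM in obese pigs and 189 and 385 CPM in control pigs. The Schwann level was higher by 3.12 on the log2 scale (SE 0.35, adjusted p = 4.9e-07, edgeR), and no Schwann library overlapped any library of the other 3 classes. NCAM2 had 754, 842 and 1282 CPM in Schwann nuclei of obese pigs and 1117 and 1192 CPM in those of control pigs. It was the gene with the greatest Schwann difference of the 8, 4.99 on the log2 scale (SE 0.41, adjusted p = 4.6e-09, edgeR). NCAM2 was also higher in fibroblast than in smooth muscle nuclei by 2.10 (SE 0.37, adjusted p = 1.3e-04, edgeR), at 80.7 to 202 CPM over the 5 libraries. NCAM1 was higher in fibroblast nuclei by 0.93 (SE 0.32, adjusted p = 0.036, edgeR), at 249 to 760 CPM. Over the alternative settings that fibroblast difference of NCAM1 lay between 0.47 and 1.11 and its adjusted p reached 0.65. It did not pass under 8 of 16 settings, among them those without obese replicate 1, obese replicate 3 or control replicate 1. NCAM1 in endothelial nuclei, at 81.3 to 711 CPM, overlapped both fibroblast and smooth muscle nuclei.

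GRID1, GRIP1 and ANO4 were highest in endothelial nuclei, of the 4 classes, in every library. The endothelial level of ANO4 in obese pigs, 21.4 to 199 CPM, nonetheless overlapped other classes. Schwann nuclei of control pigs had 20.7 and 77.9 CPM of ANO4, from 3 and 10 UMIs. T or NK cell nuclei of obese pigs had 12.7 to 21.8 CPM. GRIP1 was higher in endothelial than in smooth muscle nuclei by 6.23 on the log2 scale (SE 0.51, adjusted p = 2.5e-09, edgeR). GRID1 was higher by 5.70 (SE 0.61, adjusted p = 1.5e-07, edgeR) and ANO4 by 5.66 (SE 0.56, adjusted p = 4.6e-08, edgeR). Each of these differences was fitted over both diets, whose endothelial levels were unlike. The mean endothelial levels in obese and control pigs were 180 and 1246 CPM for GRIP1, 67.9 and 879 CPM for GRID1 and 93.3 and 435 CPM for ANO4. In smooth muscle nuclei GRIP1 lay between 3.23 and 8.76 CPM, GRID1 between 3.99 and 6.69 CPM and ANO4 between 2.57 and 4.03 CPM over the 5 libraries. These 3 calls held under all 16 alternative settings. GRIP1 was also higher in fibroblast than in smooth muscle nuclei, by 1.73 (SE 0.51, adjusted p = 0.012, edgeR). Fibroblast nuclei of obese replicate 2 had 44.3 CPM of GRIP1 against 10.2 to 21.1 CPM in the other 4 libraries. Without obese replicate 2 the difference was 0.84 (adjusted p = 0.16). Over all 16 alternatives the adjusted p reached 0.28, so the call also failed under a setting that kept this library.

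PTPRD and CNTN5 were smooth muscle genes. PTPRD was lower than in smooth muscle nuclei by a log2 difference of -3.07 in endothelial, -2.39 in Schwann and -1.58 in fibroblast nuclei. CNTN5 was lower by -2.99, -2.51 and -3.10 in the same 3 classes, and all 6 differences passed (adjusted p of 3.6e-05 or less, edgeR). Endothelial nuclei held 19.4 to 44.2 CPM of PTPRD, and T or NK cell nuclei, a class that should lack it, held 43.6 to 88.7 CPM. CNTN5 likewise had 3.20 to 96.3 CPM in endothelial nuclei and 32.7 to 69.7 CPM in T or NK cell nuclei, so the endothelial levels of PTPRD and CNTN5 overlapped those of a class that should lack them. NCAM2 in endothelial nuclei, at 4.08 to 14.98 CPM, lay below smooth muscle by -2.08 (SE 0.51, adjusted p = 0.0021, edgeR). Its endothelial level overlapped the T or NK cell range of 4.88 to 82.3 CPM. In control pigs NCAM2 had 9.96 and 4.08 CPM in endothelial and 66.9 and 62.7 CPM in smooth muscle nuclei. In obese pigs these classes overlapped, at 7.77, 14.98 and 6.41 CPM (4, 7 and 2 UMIs) and 16.1, 17.4 and 9.86 CPM. DPP10 overlapped between all 4 classes, and its endothelial minus smooth muscle difference of 1.16 (SE 0.54, adjusted p = 0.089, edgeR) did not pass. Without obese replicate 1 that difference was 1.58 (adjusted p = 0.026) and without obese replicate 2 it was 1.55 (adjusted p = 0.023), and over all its alternatives the adjusted p reached 0.95.

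**Figure D1:**
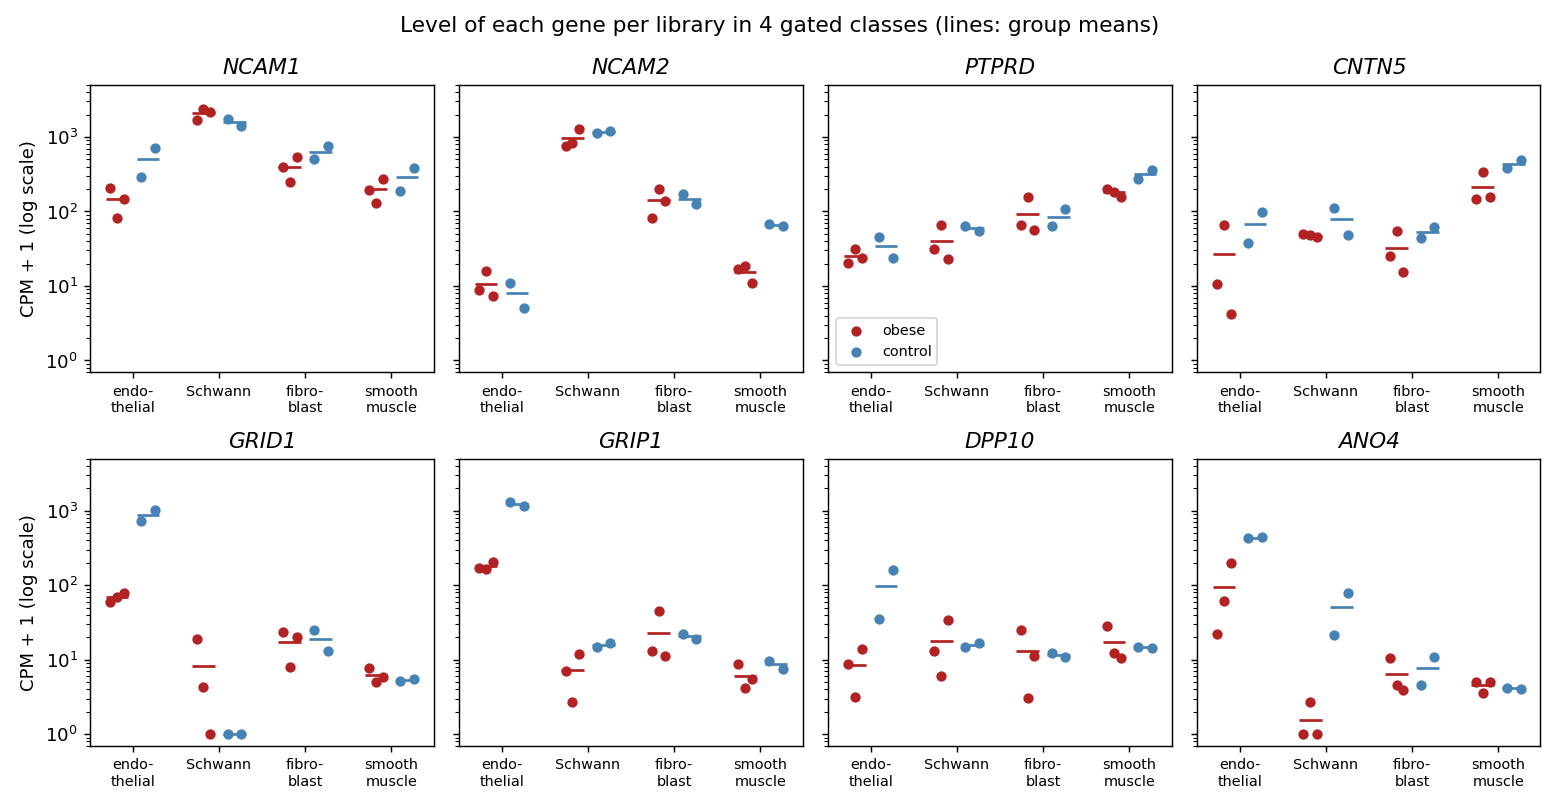
Level of each of the 8 genes (CPM + 1, log scale) in endothelial, Schwann, fibroblast and smooth muscle nuclei, with 1 point per library (obese red, control blue) and lines at the group means. NCAM1 and NCAM2 peak in Schwann nuclei, GRID1, GRIP1 and ANO4 in endothelial nuclei, and PTPRD and CNTN5 in smooth muscle nuclei.

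Of the diet differences that could be fitted in the 4 classes, the 3 furthest from 0 lay in endothelial nuclei, which numbered 191, 202 and 109 in obese pigs and 391 and 190 in control pigs. GRID1 had 58.3, 68.5 and 76.9 CPM in obese pigs, against 726 and 1032 CPM in control pigs. All 3 obese libraries lay far below the lower control library, and the fitted log2 difference was -3.61 (SE 0.33). GRIP1 had 171, 163 and 205 CPM in obese pigs and 1328 and 1165 CPM in control pigs, a log2 difference of -2.70 (SE 0.30). The spread within each group was small beside the gap for both the receptor and its scaffold. ANO4 had 21.4, 59.9 and 199 CPM in obese pigs and 432 and 438 CPM in control pigs (-2.15, SE 0.67). Here the obese libraries differed widely among themselves, and without obese replicate 3, the highest of them, the log2 difference was -3.39.

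DPP10 had 7.77, 2.14 and 12.8 CPM in endothelial nuclei of obese pigs and 34.7 and 158 CPM in those of control pigs. The obese values rest on 4, 1 and 4 UMIs and the control values on 87 and 193, and the fitted difference of -3.64 (SE 0.79) was -2.17 without control replicate 2. NCAM1 had 208, 81.3 and 147 CPM in obese pigs and 292 and 711 CPM in control pigs. The groups did not overlap (-1.68, SE 0.47), and without control replicate 2 the difference was -0.91. PTPRD and CNTN5 overlapped between the groups in endothelial nuclei, and NCAM2 was too low there to be fitted. In the edgeR fit 3 of the 7 fitted genes (GRID1, GRIP1 and DPP10) were among the 510 of 6428 genes called by diet, which is 7.93% of them, and 5 of the 7 had every obese library below both control libraries, as had 25.7% of all fitted genes. Both counts follow from how the genes were chosen and nothing is read from them. Without obese replicate 1, obese replicate 2 or control replicate 2 the first count was 2, and without control replicate 1 it was 4.

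**Figure D2:**
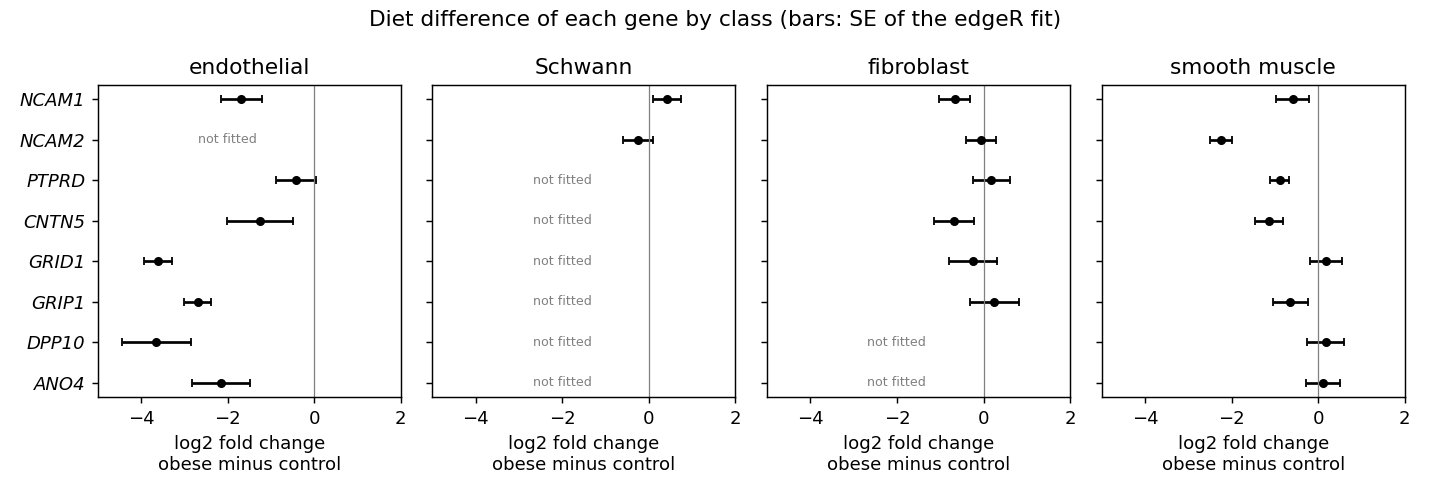
Fitted log2 fold change, obese minus control, of each gene in endothelial, Schwann, fibroblast and smooth muscle nuclei, with bars for the SE of the edgeR fit over 3 obese and 2 control libraries. The values furthest below 0 are DPP10 (-3.64), GRID1 (-3.61) and GRIP1 (-2.70) in endothelial nuclei and NCAM2 (-2.25) in smooth muscle nuclei, and genes too low for the filter are marked as not fitted.

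Endothelial nuclei were also much shallower in obese pigs, with medians of 1443, 1563 and 1582 UMIs per nucleus against 5272 and 5667 in control pigs. In endothelial nuclei of at least 4000 UMIs, GRID1 still had 77.9, 39.7 and 98.0 CPM in obese pigs and 787 and 1073 CPM in control pigs. GRIP1 had 213, 84.4 and 234 CPM there in obese pigs and 1403 and 1219 CPM in control pigs. These values come from 38, 33 and 25 obese and 227 and 124 control nuclei, and neither gene overlapped between the groups. Depth was still unequal in this subset, with medians of 5736, 4849 and 5475 UMIs in obese pigs and 9145 and 7907 UMIs in control pigs. ANO4 had 33.9, 44.7 and 207 CPM in such deep nuclei of obese pigs and 461 and 462 CPM in those of control pigs. NCAM1 had 264, 24.8 and 163 CPM in obese pigs and 311 and 748 CPM in control pigs, so the order of the groups was kept with a narrow gap. In the shallowest nuclei, of 500 to under 1000 UMIs, GRIP1 overlapped between the groups, with 110, 38.8 and 321 CPM in obese pigs and 346 and 134 CPM in control pigs. In nuclei of 2000 to under 4000 UMIs GRIP1 had 30.1, 281 and 198 CPM in obese pigs and 869 and 915 CPM in control pigs. GRID1 did not overlap in the shallowest nuclei, with 44.1, 0 and 0 CPM in obese pigs and 399 and 1008 CPM in control pigs, from 20 to 72 nuclei a library and from 2 or fewer UMIs in each obese one.

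**Figure D3:**
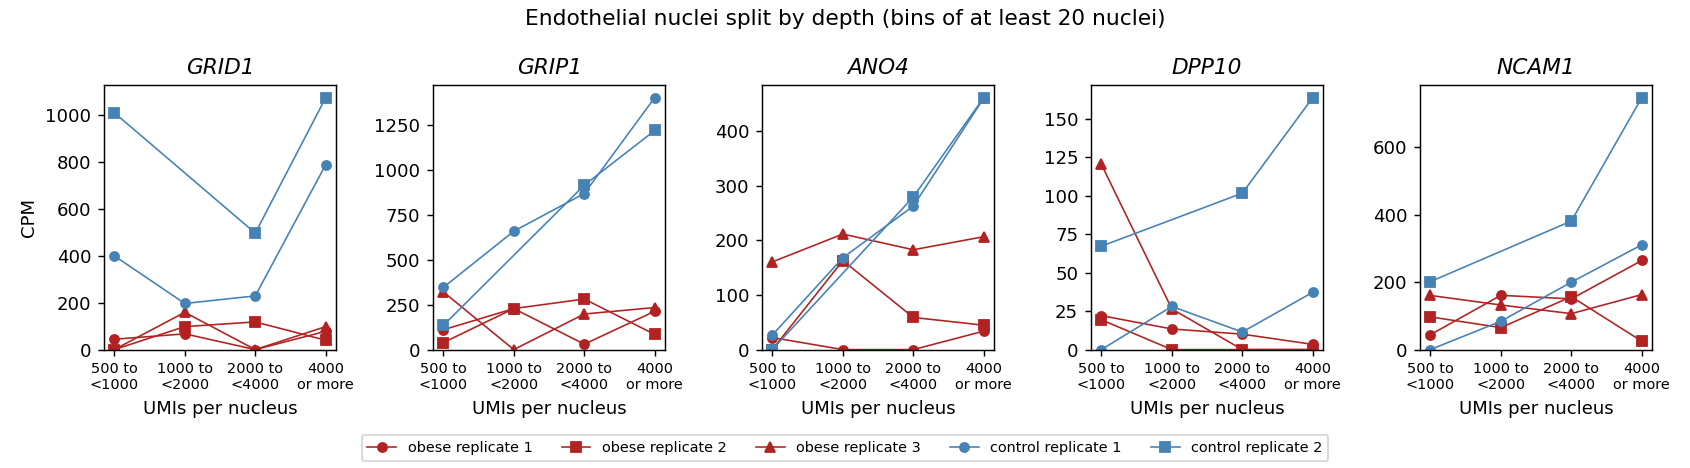
CPM of GRID1, GRIP1, ANO4, DPP10 and NCAM1 in endothelial nuclei split by UMIs per nucleus, with 1 line per library (obese red, control blue) and bins of under 20 nuclei left out. At 4000 UMIs or more GRIP1 lies between 84.4 and 234 CPM in obese libraries and at 1403 and 1219 CPM in control libraries, and in the control libraries its CPM is higher in deeper nuclei.

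With every endothelial nucleus thinned to 1000 UMIs, 7.20% (95% exact binomial interval 3.35 to 13.2), 8.46% (4.30 to 14.6) and 8.00% (2.99 to 16.6) of obese nuclei held a GRIP1 UMI. In control pigs 43.1% (37.7 to 48.5) and 49.4% (41.7 to 57.2) did. For GRID1 the shares were 4.80% (1.78 to 10.2), 3.85% (1.26 to 8.75) and 5.33% (1.47 to 13.1) in obese pigs and 26.8% (22.2 to 31.9) and 45.3% (37.7 to 53.1) in control pigs. No interval of an obese library reached that of a control library for either gene, and the intervals cover counting error only. Thinning left out 66, 72 and 34 obese and 52 and 20 control nuclei. Unthinned, 13.1%, 8.91% and 12.8% of obese and 53.5% and 62.6% of control endothelial nuclei held a GRIP1 UMI. T or NK cell nuclei thinned the same way held GRIP1 in 0 of 45, 0 of 62 and 0 of 25 nuclei in obese pigs, which, taken as 3 nuclei of the total, allows shares of nuclei with a UMI of up to 6.67%, 4.84% and 12.0%, and in 0.847% and 2.94% of nuclei in control pigs. Their median depths before thinning were 908.5, 1380 and 1082 UMIs in obese pigs and 2359 and 1842 UMIs in control pigs. Unthinned, 5.21%, 4.21% and 4.26% of obese and 2.00% and 2.00% of control T or NK cell nuclei held a GRIP1 UMI. The obese endothelial level of GRIP1, 163 to 205 CPM, lay above that of obese T or NK cell nuclei, 21.8 to 34.1 CPM, and GRID1 at 58.3 to 76.9 CPM lay above their 0 to 32.7 CPM. GRID1 and GRIP1 UMIs shared a nucleus in 16.5% and 28.2% of thinned control endothelial nuclei, where the product of their separate shares is 11.6% and 22.4%, and in 1, 1 and 0 obese nuclei.

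Other endothelial genes moved with these differences, and their part in them was not tested. VWF, the clotting factor carrier, had 286, 593 and 689 CPM in endothelial nuclei of obese pigs and 33.1 and 27.7 CPM in those of control pigs, while PECAM1, a junction molecule, had 878, 1252 and 839 CPM in obese and 2193 and 2032 CPM in control pigs. NR2F2, a transcription factor of venous endothelium, had 36.9, 72.8 and 22.4 CPM in obese and 7.97 and 5.71 CPM in control pigs. PLVAP, a protein of fenestrated vessels, had 75.8, 120 and 38.5 CPM in obese and 16.7 and 5.71 CPM in control pigs. Of the venous or capillary genes, ACKR1 and RGCC were also higher, CA4 overlapped and EPHB4 was lower. EPHB4 had 17.5, 14.98 and 9.61 CPM in obese and 22.7 and 18.8 CPM in control pigs. Genes of arterial endothelium went both ways. GJA5, a gap junction protein, had 21.4, 42.8 and 22.4 CPM in obese and 8.77 and 15.5 CPM in control pigs. SOX17, a transcription factor, had 13.6, 32.1 and 25.6 CPM in obese and 9.96 and 11.4 CPM in control pigs. DLL4 was higher in obese pigs as well, while EFNB2 and HEY1 overlapped between the groups. GJA4 was lower, with 0, 2.14 and 0 CPM in obese (0, 1 and 0 UMIs) and 5.18 and 10.6 CPM in control pigs. The 8 smooth muscle markers summed to 1333, 1220 and 916 CPM in endothelial nuclei of obese pigs and to 813 and 637 CPM in those of control pigs, and the 7 kidney tubule markers to 25.3, 68.5 and 25.6 CPM in obese and 17.1 and 5.71 CPM in control pigs. The 9 fibroblast markers summed to between 259 and 344 CPM in endothelial nuclei of obese pigs and to 793 and 867 CPM in those of control pigs, and the 5 lymphatic markers to between 52.5 and 253 CPM in obese and 13.1 and 17.1 CPM in control pigs. In endothelial nuclei of at least 2000 UMIs with no UMI of a venous or capillary gene, GRID1 had 14.6, 119 and 98.2 CPM in obese pigs and 755 and 1107 CPM in control pigs. GRIP1 had 165, 298 and 318 CPM in those nuclei of obese pigs and 1524 and 1250 CPM in those of control pigs. These values come from 50, 53 and 32 obese nuclei, with medians of 4212, 3280 and 4241.5 UMIs, and 211 and 120 control nuclei, with medians of 7564 and 7143.5 UMIs. A nucleus with no such UMI may still be of a venous or capillary type.

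In smooth muscle nuclei the gene furthest from control was NCAM2, with 16.1, 17.4 and 9.86 CPM in obese pigs and 66.9 and 62.7 CPM in control pigs. The groups lay far apart relative to their spread, and the log2 difference was -2.25 (SE 0.25), between -3.05 and -1.83 over 16 alternatives. CNTN5 had 145, 341 and 156 CPM in obese and 386 and 488 CPM in control pigs (-1.13, SE 0.32). PTPRD had 201, 180 and 157 CPM in obese and 270 and 359 CPM in control pigs (-0.89, SE 0.22). NCAM1 overlapped between the groups (-0.58, SE 0.38), and without control replicate 2 its difference was 0.05. GRID1, GRIP1, DPP10 and ANO4 stayed at or under 27.8 CPM in every smooth muscle library and overlapped. Of the 8 genes only NCAM2 was among the 47 of 17836 genes called by diet (0.264%), and not so without obese replicate 1, control replicate 1 or control replicate 2, while 2 of the 8 were called without obese replicate 2. With classes set by Leiden cluster 0 of the 8 were called, as were 15 of 17947 genes. With DESeq2 3 of the 8 were called, as were 594 of 17836 genes, and with no filter 3 of the 8 and 875 of 30216 genes. The 3 genes with every obese library below both controls compare with 11.7% of all fitted genes. As before, these counts follow from the choice of genes and nothing is read from them. Smooth muscle nuclei had median depths of 1773, 2243.5 and 1769 UMIs in obese pigs and 2596 and 2449 UMIs in control pigs. At 1000 UMIs a nucleus, 1.33%, 1.34% and 0.612% of obese and 4.10% and 3.35% of control smooth muscle nuclei held an NCAM2 UMI, against 2.72%, 3.21% and 1.58% of obese and 8.43% and 7.69% of control nuclei unthinned. By depth, NCAM2 overlapped between the groups in smooth muscle nuclei of 500 to under 1000 UMIs, with 67.6, 81.0 and 23.7 CPM in obese and 80.2 and 55.3 CPM in control pigs. In those of at least 4000 UMIs it had 10.7, 9.72 and 6.10 CPM in obese and 72.1 and 73.3 CPM in control pigs, and the groups were also apart in both bins between. Markers of other cell types moved with diet in smooth muscle nuclei, and their part in these differences was not tested. The fibroblast markers summed to 141, 127 and 127 CPM in obese and 61.0 and 96.1 CPM in control pigs, and the macrophage markers to 23.7, 53.9 and 11.3 CPM in obese and 5.92 and 9.45 CPM in control pigs. The pericyte markers summed to 515, 615 and 556 CPM in obese and 738 and 662 CPM in control pigs, and the neuron markers to 13.2, 7.77 and 8.62 CPM in obese and 22.4 and 14.3 CPM in control pigs.

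The make-up of smooth muscle differed between the diets, so the same genes were read within clusters. Cluster 1, led by PLXNA4, ACTG2 and RGS2, held 45.3%, 28.4% and 39.4% of obese and 1.9% and 16.6% of control smooth muscle nuclei. Cluster 2, led by UNC13C, ADAMTSL1 and HMCN1, held 4.2%, 4.7% and 5.4% of obese and 42.4% and 37.5% of control nuclei. These sizes are given as facts of the libraries, since the genes that define the clusters may themselves differ with diet. NCAM2 was lower in every obese than in every control library in 6 of the 7 clusters that had at least 20 smooth muscle nuclei in each library. One of the 6 is cluster 3, led by the heat shock genes DNAJB1, HSPH1 and HSPA6, which as a whole fell below the smooth muscle limit and enters only with its nuclei that passed the gate. In cluster 0, which held 25.5% to 38.9% of smooth muscle nuclei in each library, NCAM2 had 28.6, 40.2 and 18.8 CPM in obese and 65.4 and 60.0 CPM in control pigs. In cluster 9, led by ISM1 and PTGER3, NCAM2 had 8.7, 8.5 and 4.3 CPM in obese and 86.9 and 97.5 CPM in control pigs. These cluster 9 values come from 193, 980 and 200 obese and only 25 and 51 control nuclei. CNTN5 was lower in all obese libraries in clusters 0, 2, 3 and 5, with 97.2, 188 and 136 CPM in obese and 367 and 330 CPM in control pigs in cluster 0. PTPRD was so in clusters 1 and 8 only. GRIP1 was so in clusters 1, 5, 8 and 9, at no more than 17.4 CPM in any library there, and NCAM1 in cluster 9. The genes were chosen on this contrast and the share over all genes was not taken within clusters, so nothing is read from these counts. The part of the make-up of smooth muscle in the diet differences was not tested.

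DPP10 stood out in cluster 8, a group of nuclei led by CTNNA3, STUM and EDNRB. It had 99.1, 43.6 and 72.1 CPM there in obese pigs and 169 and 240 CPM in control pigs, whereas no library exceeded 36.2 CPM in any of the other 6 clusters. The groups did not overlap in cluster 8, although DPP10 overlapped over all smooth muscle nuclei, of which cluster 8 held 10.1%, 9.8% and 3.1% in obese and 3.7% and 2.3% in control pigs. In each library CNTN5 was also highest in cluster 8, at 514, 939 and 512 CPM in obese and 1045 and 888 CPM in control pigs. GRID1 ran the other way in cluster 0, with 21.1, 11.7 and 14.0 CPM in obese and 5.9 and 5.4 CPM in control pigs, at levels far below those of endothelial nuclei. In cluster 1 it was lower in all obese libraries, at 5.55, 4.15 and 2.90 CPM in obese and 6.42 and 6.58 CPM in control pigs.

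**Figure D4:**
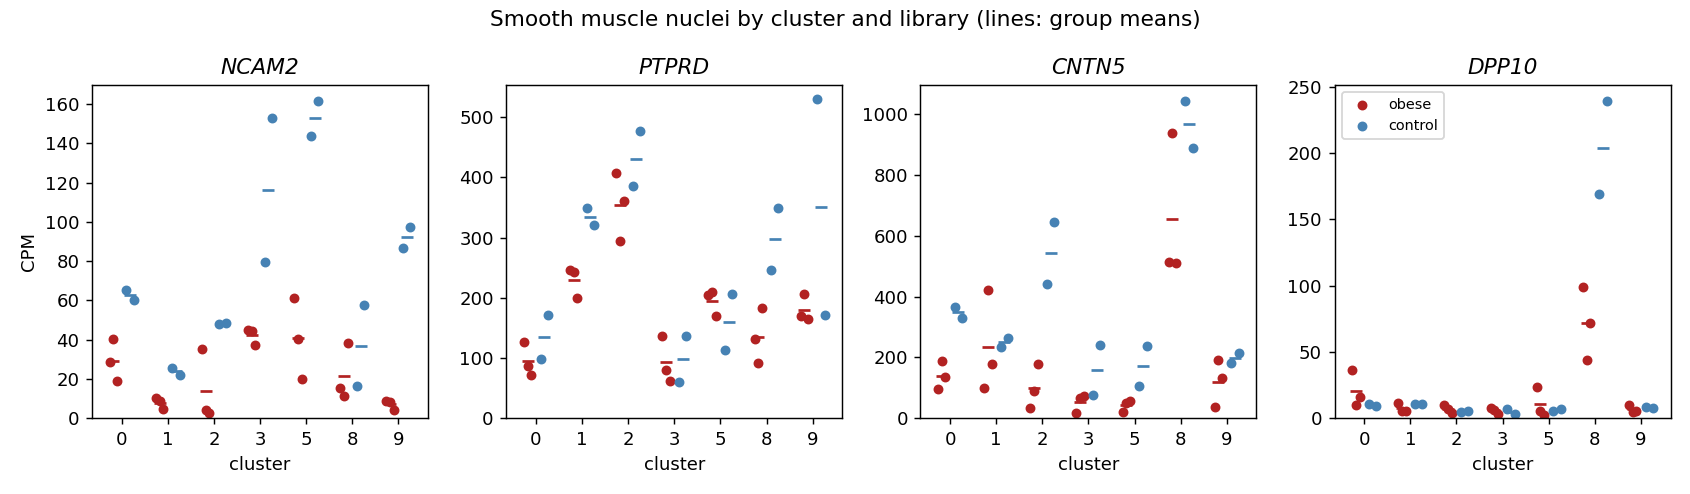
CPM of NCAM2, PTPRD, CNTN5 and DPP10 of smooth muscle nuclei in the 7 clusters with at least 20 of them in every library, with 1 point per library (obese red, control blue) and lines at the group means. NCAM2 is lower in obese than in control libraries in 6 of the 7 clusters, and DPP10 is high in cluster 8 alone. The genes were chosen on the diet contrast, so nothing is read from the count of clusters.

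In Schwann and fibroblast nuclei the diets overlapped in NCAM1 and NCAM2, the genes of the 8 that were highest there. In Schwann nuclei NCAM1 differed by 0.42 (SE 0.32) and NCAM2 by -0.25 (SE 0.34) on the log2 scale, and the library values given above overlap for both. The classes were small, at 106, 261 and 46 obese and 61 and 58 control Schwann nuclei, with median depths of 1215, 1753 and 1455 UMIs in obese and 1610 and 1633.5 UMIs in control pigs. No gene of 3276 was called by diet in Schwann nuclei (0.0%; edgeR), where 316 had an unadjusted p under 0.05 and DESeq2 called 8 and limma-voom 4. ANO4 gave 0, 1 and 0 UMIs in Schwann nuclei of obese pigs and 3 and 10 UMIs in those of control pigs, too few to fit. GRIP1 gave 1 UMI in each obese and 2 in each control library and was not fitted either. Both genes had every obese library below both controls. Of all fitted genes 14.4% had this, which is no like comparison for genes too low to fit, and nothing is read from it. In fibroblast nuclei NCAM1 had 389, 249 and 541 CPM in obese and 501 and 760 CPM in control pigs (-0.66, SE 0.36). NCAM2 had 80.7, 202 and 139 CPM in obese and 173 and 124 CPM in control pigs (-0.06, SE 0.35). Fibroblast nuclei had median depths of 1445, 2019.5 and 1592.5 UMIs in obese and 2724 and 1899 UMIs in control pigs. Of the 6 genes fitted in fibroblast nuclei, 0 were called, as were 33 of 8371 genes (0.394%), and all 8 genes overlapped between the diets there, while 15.6% of all fitted genes had every obese library below both controls. Whether the diet difference of GRID1, GRIP1 and NCAM2 is larger in one class than in another was not tested.

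The 8 genes span between 332 and 2181 kb in the RefSeq annotation of Sscrofa11.1. A span was found for 93.7% to 96.2% of the fitted genes with a symbol. The median log2 difference of genes of at least 300 kb was 0.20 in 404 genes in endothelial nuclei, 0.02 in Schwann, 0.05 in fibroblast and 0.03 in 622 genes in smooth muscle nuclei, so long genes as a group were not lower in obese pigs. With the trend over span subtracted, GRID1 in endothelial nuclei was at -3.85, GRIP1 at -2.90 and NCAM2 in smooth muscle nuclei at -2.33. Among 124 genes of like span and level, the median endothelial difference beside GRID1 was 0.15. In smooth muscle nuclei the genes of like span and level were themselves lower beside PTPRD (median -0.39, 4 genes), CNTN5 (-0.23, 32 genes) and NCAM1 (-0.16, 372 genes), and at 0.03 beside NCAM2 (107 genes).

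**Figure D5:**
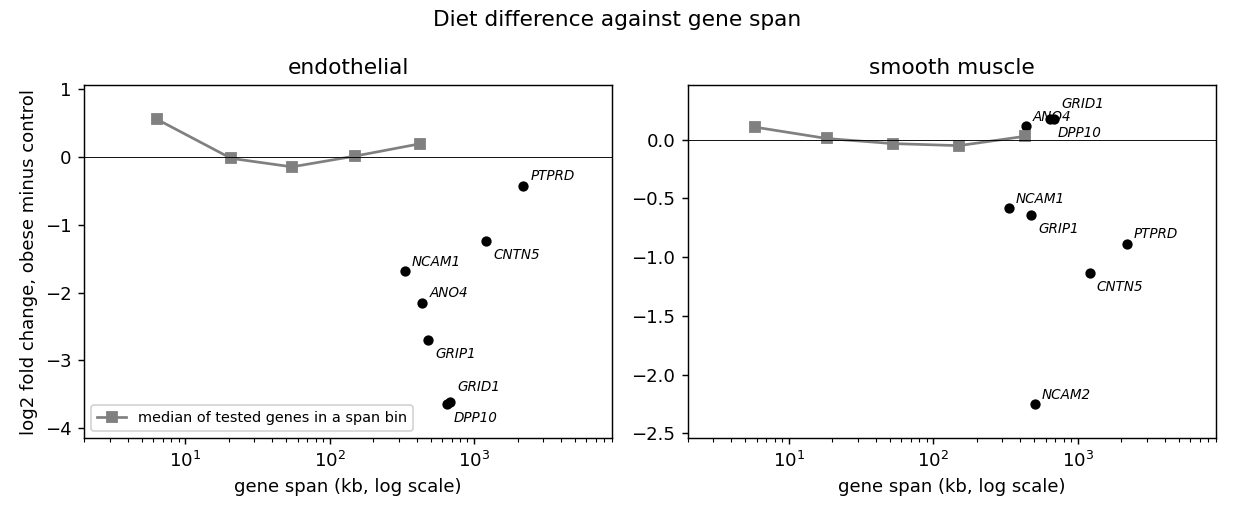
Log2 fold change, obese minus control, against gene span (kb, log scale) in endothelial and smooth muscle nuclei, with grey squares for the median of all fitted genes in 5 span bins, placed at the bin's median span, and black points for the 8 genes where fitted. The grey line ends at 0.20 in endothelial and 0.03 in smooth muscle nuclei for genes of at least 300 kb, and all fitted points of the endothelial panel lie below it.

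A list of 116 further genes of the same families was read across the same classes, of which 110 were among the features and 66 were tested between classes. The list was drawn up from general knowledge of these families with earlier results of the data known. In Schwann nuclei 30 of the 66 rose and 14 fell relative to smooth muscle nuclei (edgeR), with a list median of 0.64 beside -0.06 over all genes, of which 29.3% passed in either direction. Among 15 immunoglobulin-family adhesion genes 11 rose, and so did 5 of 8 glutamate receptors and 3 of 3 neurexin-group genes. CHL1, a close homologue of the L1 adhesion molecule, was higher by 9.34 (SE 0.38) and GRIK3, a kainate-type glutamate receptor, by 9.52 (SE 0.42), with adjusted p-values of 1.25e-13 and 2.98e-13 (edgeR). The others of the 8 smallest p were GRIK2 (8.40), CADM2 (7.42), IL1RAPL2 (8.38), GFRA1 (6.55), LRRTM4 (7.49) and GRIA4 (7.19), all log2 differences. In endothelial nuclei 13 rose and 21 fell, and the list median of -0.07 lay beside -0.01 over all genes, of which 43.4% passed. PPFIA2, a liprin that binds LAR-type phosphatases such as PTPRD, was higher by 6.23 (SE 0.28) and NLGN1, a synaptic adhesion protein that binds neurexins, by 5.18 (SE 0.44), while GRIP2, the paralogue of GRIP1, was lower by -3.92 (SE 0.38). Their adjusted p-values were 7.97e-13, 5.63e-09 and 4.05e-08 (edgeR). FYN (2.96), ST8SIA4 (5.28) and CNTN3 (4.87) were also higher, and NTRK3 (-3.25) and ANO1 (-3.49) lower. In fibroblast nuclei 25 rose and 12 fell (median 0.48 beside 0.01, with 29.1% of all genes passing), among them GRIA4, an AMPA receptor subunit, higher by 5.61 (SE 0.33, adjusted p = 8.25e-11, edgeR). NEGR1 (4.68), GFRA1 (3.91), FYN (2.63), IL1RAPL1 (4.09), SDK1 (3.84), CNTN3 (4.86) and KCNIP1 (4.77) followed. All 4 tested anoctamins were below smooth muscle nuclei in Schwann nuclei, and 3 of them fell.

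With diet, 5 of 30 fitted list genes were called in endothelial nuclei, 4 higher and 1 lower in obese pigs (edgeR), where 7.93% of all fitted genes were called. ST8SIA4, which adds polysialic acid to NCAM1, had 93.3, 111 and 44.9 CPM in obese and 12.8 and 13.1 CPM in control pigs, higher by 2.77 (SE 0.42, adjusted p = 0.0074). MAGI1, a PDZ-domain scaffold of cell junctions, had 3412, 5061 and 2659 CPM in obese and 1375 and 828 CPM in control pigs (1.83, SE 0.40, adjusted p = 0.023). So within endothelial nuclei 1 PDZ scaffold was higher and another, GRIP1, lower in obese pigs. CADM1, an adhesion molecule, rose by 1.54 (SE 0.35, adjusted p = 0.028) and PPFIBP1, a liprin, by 1.92 (SE 0.39, adjusted p = 0.020). KCNIP4, a Kv4 channel partner as DPP10 is, was lower by -1.68 (SE 0.43, adjusted p = 0.043) and changed sign under 4 of its 16 alternatives. NLGN1 had 579, 64.2 and 304 CPM in obese and 1144 and 1632 CPM in control pigs and did not pass (-2.02, SE 0.66, adjusted p = 0.090). None of the 5 passed in endothelial nuclei of at least 4000 UMIs, where the log2 differences were 2.88 for ST8SIA4, 2.13 for PPFIBP1, 1.90 for MAGI1 and 1.61 for CADM1, with adjusted p-values between 0.057 and 0.14, and the adjusted p of these 4 reached 0.19 over all alternatives and that of KCNIP4 0.44. Without control replicate 1, 2 list genes were called, and likewise 2 without control replicate 2, and ST8SIA4 passed with any 1 library left out. No list gene was called in Schwann (38 fitted, 8 with an unadjusted p under 0.05), fibroblast (50 fitted, 9) or smooth muscle nuclei (90 fitted, 17) by edgeR, while DESeq2 called 0, 2 and 1. In smooth muscle nuclei the list median was 0.37 beside 0.01 over all genes, and ANO3, an anoctamin, had the smallest p, at 1.75 (SE 0.39, adjusted p = 0.10), followed by NLGN1 (-0.76), IGSF21 (1.78) and CNTN4 (1.72). The smallest p in Schwann nuclei belonged to GRIK2 (0.79), GFRA1 (0.87), CNTNAP2 (-1.53) and CADM2 (0.90), and in fibroblast nuclei to HOMER1 (1.42), NEGR1 (1.46), KCND3 (0.80) and GRIA4 (-0.84), none of which passed.

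Over the 20 points of 4 classes and 5 libraries, the genes most like each of the 8 were taken by Pearson correlation of log2(CPM + 1), among 9114 genes. They were picked on these points, so any class pattern they share with the 8 follows from the choice. GRIP1 ran closest to GATA2 (r = 0.94), a transcription factor of endothelium, and CYFIP1 (0.93). ANO4 ran closest to EDN1 (0.93), the endothelin-1 gene, and TAF2 (0.92), and GRID1 to RALGAPA1 (0.93) and ANKRD55 (0.92). NCAM2 ran closest to PLEKHA5 (0.96) and KIAA0408 (0.96), and NCAM1 to PHLDB1 (0.91) and FAM13B (0.90). PTPRD ran closest to ADAMTS12 (0.93) and UNC5C (0.93), a netrin receptor, and CNTN5 to PCDH7 (0.91) and SEMA3E (0.88). DPP10 had the weakest best match, SH3GLB1 (0.74), then PCNX1 (0.73). The 4 points of each pig share a library and its depth, so these values are descriptions.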

How the data were processed

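The deposited files hold raw UMI counts per gene and barcode for each of the 5 libraries. Per the series' design text in the labels the authors mapped reads to the pig genome build named Sscrofa11 with Cell Ranger 5.0, and per the file headers version 7.1.0 wrote the matrices. Seurat 5.0 is named in the labels for later steps not seen in these counts. The labels number the replicates without saying that each is a separate animal, so p-values measure only the spread between these 5 libraries, which may be technical.

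The filter kept barcodes of 300 or more genes whose mitochondrial share was no higher than 5%. Scrublet's automatic threshold (scanpy 1.11.5) marked 2 barcodes in all, so the highest scores were removed at 0.8% per 1000 barcodes. Each nucleus was pooled with its 20 nearest neighbours, found without the 8 genes and their list, and a class marker counted where its pooled level was at least 20 CPM and 5 times that over all nuclei. A class needed 3 markers, and smooth muscle was every other nucleus with at least 0.5% of pooled UMIs in its markers. A class name thus rests on marker levels of neighbourhoods, not on any authors' annotation.

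UMIs were summed per class and library and fitted with edgeR 4.0.16 (TMM, filterByExpr, quasi-likelihood test, Benjamini-Hochberg over all genes, called under 0.05), obese minus control, or between classes with the pig as a block. DESeq2 1.42.0 and limma 3.58.1 were alternatives, as were other gates, filters, thinning and leaving out each library. Fits were tested on simulated data. SE are of the fit, and the quoted spread is over libraries. The 8 genes, the gene list and the markers were chosen with earlier results of these data known. Named list genes were those called in a class, at most 8 by smallest p, filled to 4 by smallest p where fewer were called; of the 2 highest per family, those also named by this are printed. The endothelial subtype genes, the cluster readings, the gate on single nuclei and the nuclei of at least 4000 UMIs were added after seeing the data.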

Additional observations from a re-analysis of the deposited data

Results flagged for a closer look

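Outside the 4 classes, the 8 genes were also read in macrophage, T or NK cell and lymphatic endothelial nuclei. There 5 pairs of gene and class had every obese library above both control libraries, all from few UMIs and with no test. Of these, 3 rest on at least 10 UMIs in the obese libraries together. The share of all genes with every obese library above both controls was not taken in these classes, so nothing is read from the count of 5. NCAM1 averaged 77.3 CPM in lymphatic endothelial nuclei of obese pigs, with 122, 71.0 and 38.7 CPM, against 29.3 and 0 CPM in control pigs, in 26, 72 and 10 obese and 11 and 8 control nuclei. GRIP1 averaged 29.2 CPM in T or NK cell nuclei of obese pigs, with 31.7, 34.1 and 21.8 CPM from 5, 7 and 2 UMIs, against 8.87 and 8.59 CPM in control pigs. DPP10 averaged 34.9 CPM in T or NK cell nuclei of obese pigs, with 63.3, 19.5 and 21.8 CPM from 10, 4 and 2 UMIs, against 2.22 and 0 CPM in control pigs. The other pairs are ANO4 in T or NK cell nuclei, with 12.7, 19.5 and 21.8 CPM from 2, 4 and 2 UMIs in obese and 2.22 and 0 CPM in control pigs, and GRID1 in lymphatic endothelial nuclei, with 28.2, 10.1 and 19.4 CPM from 3, 3 and 1 UMIs in obese and 0 and 0 CPM in control pigs. T or NK cell nuclei were shallower in obese pigs, at medians of 908.5, 1380 and 1082 UMIs against 2359 and 1842 in control pigs, and the part of depth in these values was not tested.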

How the results depend on the processing

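Of 380 values of the 8 genes by diet, 346 moved by less than 1 SD between libraries and 34 by more, and none with a log2 difference of at least 1 changed sign. Of 375 class tests of the 8, 355 kept their side of the threshold, 10 lost it and 10 gained it, with no called gene reversed. The count of the 8 called against smooth muscle was 6 to 7 in endothelial, 4 to 5 in Schwann and 4 to 5 in fibroblast nuclei when 1 library was left out. KCNIP4 in endothelial nuclei changed sign under the stricter gate (1.44), Leiden classes (1.18), no doublet removal (1.31) and the gate on single nuclei (1.42).

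Counts of genes called by diet depended strongly on the setting. In smooth muscle nuclei 47 became 25 with DESeq2 size factors, 875 with no filter, 594 with DESeq2, 19 with limma-voom, 15 with Leiden classes and 11 with thinning, and 0 to 119 with 1 library left out. It was 0 without control replicate 1 (1816 at an unadjusted p under 0.05), 2 without obese replicate 1, 4 without control replicate 2 and 119 without obese replicate 3. In endothelial nuclei 510 became 1050 with no filter, 302 with thinning, 287 with the gate on single nuclei and 85 in nuclei of at least 4000 UMIs, and 139 to 442 with 1 library left out, the lowest without control replicate 2. In Schwann nuclei 0 became 35 with no filter, 8 with DESeq2, 4 with limma-voom, 4 with the stricter gate and 4 with no doublet removal, and 0 to 1 with 1 library left out. In fibroblast nuclei 33 became 392 with no filter, 129 with DESeq2, 56 with the stricter gate, 17 with Leiden classes, 0 with the gate on single nuclei (430 at an unadjusted p under 0.05) and 8 at 4000 UMIs or more. There it was 0 without control replicate 1 or 2, 5 without obese replicate 1 and 119 without obese replicate 3.

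List genes called were 7 with no filter and 1 with DESeq2 in smooth muscle nuclei (0 to 3 with 1 library left out), 12 with no filter, 3 with the gate on single nuclei and 0 at 4000 UMIs or more in endothelial nuclei (2 to 6), and 7 with no filter, 2 with DESeq2 and 1 with the stricter gate in fibroblast nuclei (0 to 0). The share of nuclei with a UMI was also compared at thinned depths, over the 8 genes and 4 classes. Every obese library lay below both controls in 7 pairs of gene and class at 500 UMIs and in 12 at 1000 UMIs. The genes were chosen on this contrast and the share over all genes was not taken, so nothing is read from these counts. The labels tie no pigs by replicate number, and deviations of same-numbered libraries correlated between -0.098 and 0.062. With a replicate block the diet calls were 402 in smooth muscle, 1015 in endothelial, 4 in Schwann and 60 in fibroblast nuclei, and the list calls 5 in smooth muscle and 8 in endothelial nuclei. Where a setting changed a count its cause was not tested.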
